A study of Mus musculus with 4 samples.

Results

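The set described here is 10 of the 32285 genes counted in CD45+ cells of mouse melanomas, chosen by name: Cd274, Pdcd1lg2, Cd80, Cd86, Lgals9, Vsir, Havcr2, Cd200, Cd200r1 and Sirpa, which encode ligands and receptors that restrain or assist lymphocytes and phagocytes. All 10 were found in the count table, and none was dropped before the levels were computed. The tumours grew from YUMM1.7 melanoma cells (with Braf V600E and Cdkn2a-/- among their alleles) that carried ovalbumin, in Rag2-/- mice, which make no T or B cells of their own. Every tumour received in vitro activated OT-1 CD8+ T cells, which recognise ovalbumin, on day 7 and was taken on day 10, 72 h later. NTT came from therapy-naive cells, and RTT from cells that had become resistant to BRAF inhibition with dabrafenib. RTT_ROSA26 and RTT_PTGS12KO came from resistant cells with inducible Cas9, guided to the Rosa26 control locus in the first and to Ptgs1 and Ptgs2, the cyclooxygenase genes of prostaglandin synthesis, in the second. The lines were clones, and the knockout was made in the cancer cells only, so the sorted immune cells could not be used to check it. Each group was 1 sample, labelled as 1 tumour per condition, although the legends of the study speak of pooled tumours. No difference between samples therefore has a replicate check, and no p-value is given.

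T cells are activated through their antigen receptor together with CD28, which binds CD80 and CD86 on antigen-presenting cells, and CTLA-4 competes with CD28 for the same ligands. PD-L1 and PD-L2, encoded by Cd274 and Pdcd1lg2, engage PD-1 on T cells and dampen their response, and interferons are well-known inducers of PD-L1. TIM-3, VISTA, the CD200 receptor and SIRPα are inhibitory receptors or ligands found on myeloid cells, of which SIRPα receives the signal of CD47 that restrains phagocytosis.

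The genes of both PD-1 ligands are neighbours on chromosome 19 and had the widest differences between samples, so their promoters are shown. In the GENCODE annotation of GRCm38, Cd274 lies at chr19:29367455-29388095 and Pdcd1lg2 at chr19:29410919-29471161, both protein-coding and on the plus strand. The interval of 22823 bases between them contains 0 annotated genes. Each overlaps an antisense gene on the opposite strand (AC119228.1 and A930007I19Rik), and reads of the partners cannot be told apart if strand was ignored in counting, which is not given in the sources used here. The 250 bases before the RefSeq start of each gene on GRCm38.p6, chr19:29367188-29367437 for Cd274 and chr19:29410669-29410918 for Pdcd1lg2, are given 5′ to 3′ on the plus strand, with capitals where the core of the interferon-stimulated response element (GAAANNGAA, read on both strands) matched.
Cd274: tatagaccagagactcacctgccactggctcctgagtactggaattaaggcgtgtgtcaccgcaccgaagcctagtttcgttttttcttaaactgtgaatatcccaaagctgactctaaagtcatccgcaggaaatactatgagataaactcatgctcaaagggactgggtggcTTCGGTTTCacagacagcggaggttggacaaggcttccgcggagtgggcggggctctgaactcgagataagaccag
Pdcd1lg2: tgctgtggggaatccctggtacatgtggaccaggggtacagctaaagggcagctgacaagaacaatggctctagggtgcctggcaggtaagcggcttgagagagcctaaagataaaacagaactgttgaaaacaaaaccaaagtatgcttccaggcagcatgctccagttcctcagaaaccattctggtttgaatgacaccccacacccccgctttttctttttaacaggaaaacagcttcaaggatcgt
Cd274 held 1 such match, from base 76 to base 68 before the start, on the minus strand, and Pdcd1lg2 held 0. Among 32851 promoters of the same length, 7.13% held this motif, 7.02% the interferon-gamma-activated site TTCNNNGAA and 4.98% GGGNNTTCC, a form of the NF-κB motif. Neither of the latter matched in the windows of the 2 PD-1 ligands, and other forms of the NF-κB motif were not searched. The matches describe letters only and are no evidence of binding. Lgals9 held 1 match of the first motif and 1 of this NF-κB form. Promoters were at hand for 7 of the 10 genes, not for Cd86, Cd200r1 and Sirpa.

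NTT gave 8266 cells and RTT 7970, while RTT_ROSA26 gave 6836 and RTT_PTGS12KO 10296, with medians of 7292.5 to 13280 UMIs per cell. Levels are given as UMIs summed over the cells of a sample and type, and scaled to a total of 1000000 UMIs (CPM). A UMI marks 1 captured transcript end, so no division by gene length was needed. The brackets after a level hold its 95% exact Poisson interval, which covers counting error only. The deposited names of 17 cell types were used, and monocytes (Monocyte_1, Monocyte_3, Infl_Mono) and macrophages (the 4 TAM clusters and Ctsk_Macro) were also pooled as classes. Their balance differed strongly, with 6619 monocytes and 308 macrophages in NTT, 522 and 6734 in RTT, 144 and 5993 in RTT_ROSA26, and 4015 and 5207 in RTT_PTGS12KO. The clusters behind a class differed too: 192 of the NTT macrophages were TAM_H2Ab1, whereas TAM_C1q (3412 cells) and TAM_Spp1 (2057 cells) led in RTT. In every named type all genes of its marker list reached 10 CPM over the pooled cells. TAM_Spp1 and Ctsk_Macro, however, had 0 of the 7 macrophage markers above the mean of the other cells, and had Thbs1, Spp1 and Vegfa and, respectively, Ctsk, Mmp9 and Acp5 among their leading genes. Barcodes were shared between the 3 chip loads for 98 sequences, and no cell shared one within a load.

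The 10 genes fell into different cell types. Averaged over the samples with at least 20 cells of a type, Cd274 was highest in Monocyte_3 (638 ± 226 CPM, SD, n = 2), CCR7+ dendritic cells (DC3, 598 ± 140 CPM, n = 2) and neutrophils (506 ± 306 CPM, n = 4), and these neighbours differed by less than their spread. The first 2 of these means come from NTT and RTT_PTGS12KO only, so the order turns when single samples are compared. Monocyte_3, neutrophils and DC3 held 798, 744 and 698 CPM in NTT, and 478, 773 and 499 CPM in RTT_PTGS12KO. Pdcd1lg2, Cd80, Cd86 and Cd200 were highest in DC3, and for these 4 the step to the next type exceeded the larger SD of the pair. The DC3 means again come from NTT and RTT_PTGS12KO only, so these steps also hold differences between samples. Within a sample, Pdcd1lg2 in DC3 and cDC2 was at 243 against 146 CPM in NTT and 226 against 97.2 CPM in RTT_PTGS12KO. DC3 were followed by neutrophils and cDC2 for Cd80 and by cDC2 for Cd86. Vsir, Sirpa and Lgals9 were broad myeloid transcripts, and Havcr2 ran from 4.36 CPM in Myofibrobl to 135 CPM in Monocyte_3. Because the clusters were made from the same expression values, differences between types are given as a description.

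**Figure D1:**
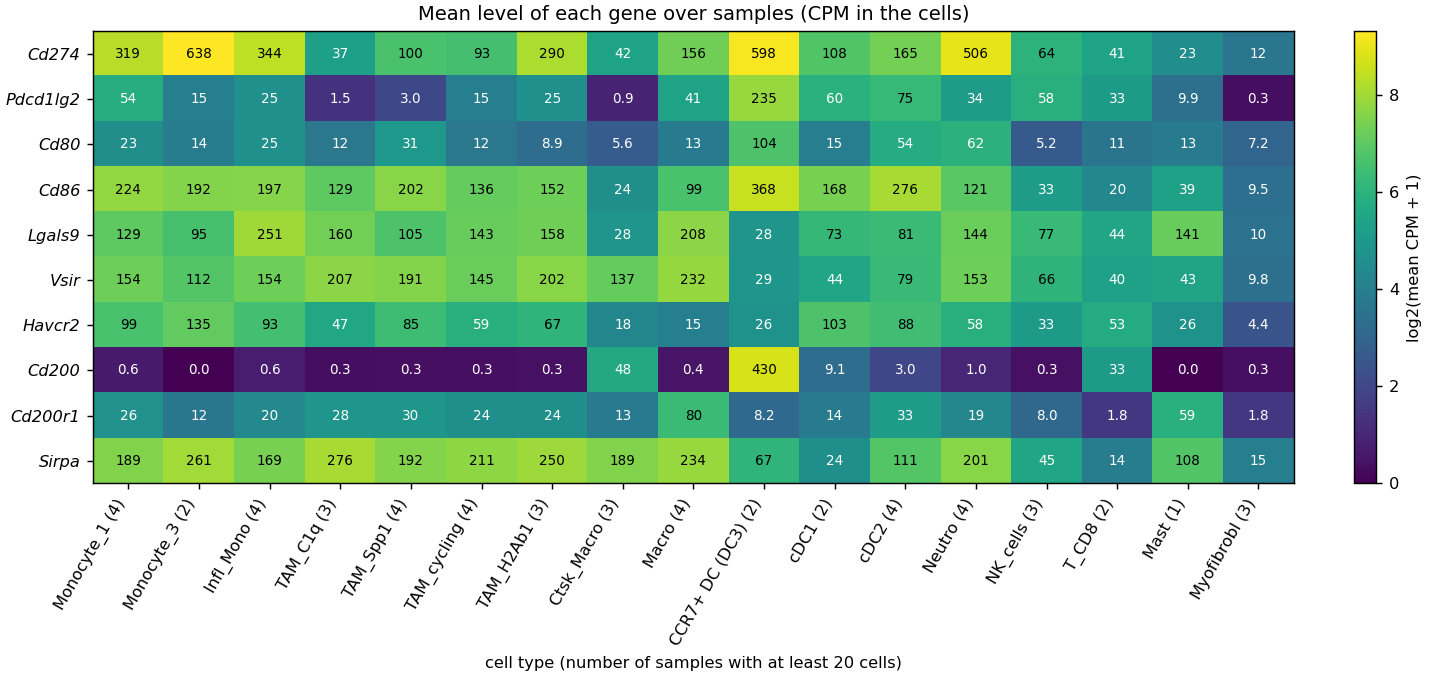
Heat map of the mean level of each of the 10 genes (rows) in each of 17 cell types (columns), in CPM printed in the cells and coloured as log2(mean CPM + 1), averaged over the samples with at least 20 cells of that type (their number in brackets). Cd200 stands at 430 CPM in CCR7+ dendritic cells, 48 in Ctsk_Macro and 33 in T_CD8, and under 10 elsewhere, while Sirpa, Vsir and Cd86 exceed 90 CPM in most monocyte and macrophage types.

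Of the set, the PD-1 ligands gave the highest ratios of NTT against RTT in both classes. A gene was counted as past 2-fold where the log2 ratio of CPM + 1 was at least 1 or at most -1 and the higher sample had 10 CPM or more. In monocytes, 2 of the 9 genes that reached 10 CPM were past 2-fold higher in NTT than in RTT, Cd274 and Pdcd1lg2, against 1.84% of all genes, and 0 were lower, against 1.65%. For RTT_PTGS12KO against RTT_ROSA26 in monocytes, 1 of 9 was higher, Pdcd1lg2, against 2.22% of all genes, and 0 were lower, against 2.47%. RTT_ROSA26 against RTT, which both keep Ptgs1 and Ptgs2 and so show how far 2 resistant samples differ, gave 0 of 9 in monocytes in either direction, against 2.2% higher and 2.54% lower.

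In macrophages, 2 of 9 genes were past 2-fold higher in NTT than in RTT, Cd274 and Pdcd1lg2, against 5.6% of all genes, and 1 was lower, Cd80, against 3.83%. For RTT_PTGS12KO against RTT_ROSA26, Cd274 was the 1 gene of 8 past 2-fold higher, against 2.46%, and 0 were lower, against 0.969%. In RTT_ROSA26 against RTT, 0 of 8 were higher, against 0.604%, and 1 was lower, again Cd274, against 0.783%. The median log2 ratio of the genes tested lay between -0.22 and 0.24 over the 6 comparisons, beside -0.09 to 0.07 for all genes. Cd200 was under 10 CPM in both samples of every one of these comparisons, and Pdcd1lg2 in the macrophage comparisons among resistant samples. The comparisons share the RTT and RTT_ROSA26 samples, so they are not independent of each other.

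**Figure D2:**
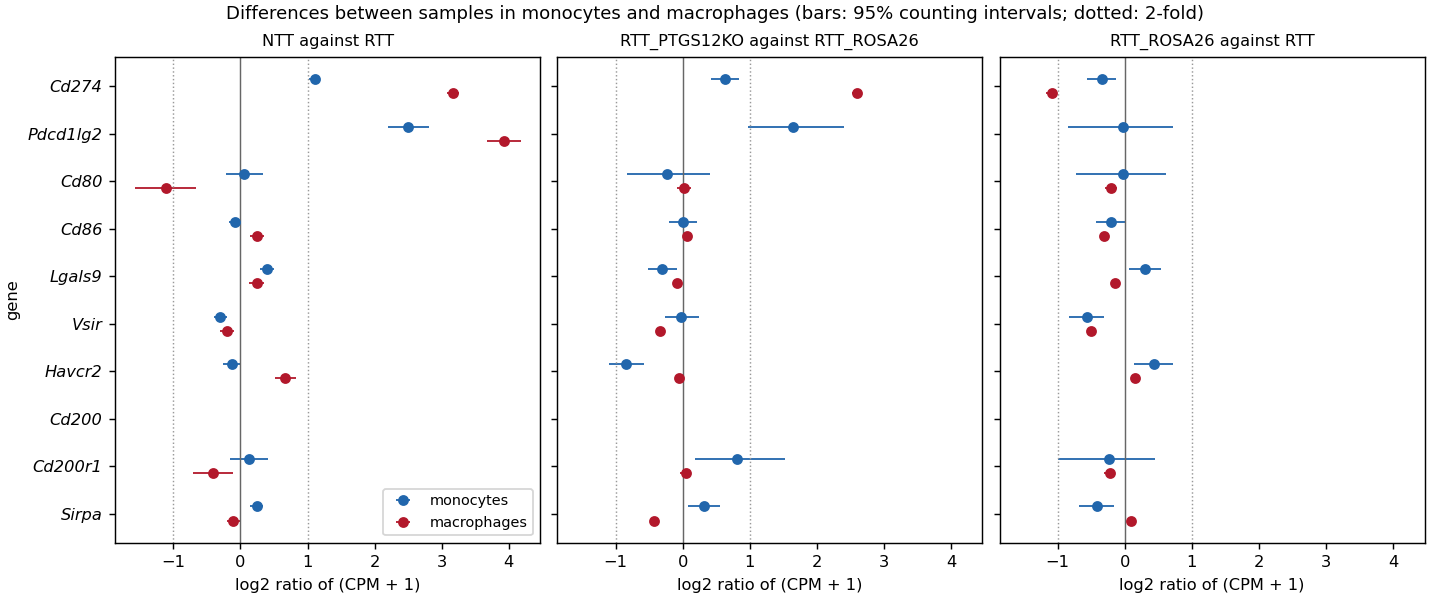
Log2 ratio of CPM + 1 for each gene (vertical axis) in monocytes (blue) and macrophages (red) in the 3 comparisons of samples, with 95% counting intervals, the 0 line solid and 2-fold dotted. Cd274 reaches 3.17 and Pdcd1lg2 3.93 in macrophages of NTT against RTT, and most other points lie inside the dotted lines. Genes under 10 CPM in both samples have no point.

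Cd274, encoding PD-L1, was detected in every class and sample. In monocytes it stood at 543 CPM (536 to 549) in NTT, 252 CPM (238 to 266) in RTT, 199 CPM (172 to 228) in RTT_ROSA26 and 308 CPM (303 to 314) in RTT_PTGS12KO. In macrophages the levels were 319 CPM (302 to 336), 34.6 CPM (33.5 to 35.8), 15.8 CPM (15 to 16.6) and 101 CPM (99 to 103) in the same order. NTT was highest and RTT_ROSA26 lowest in both classes, with no overlap of the counting intervals within a class. The log2 ratio of NTT against RTT was 1.11 (1.02 to 1.19) in monocytes and 3.17 (3.07 to 3.26) in macrophages. RTT_PTGS12KO against RTT_ROSA26 gave 0.63 (0.43 to 0.84) in monocytes, below 2-fold, and 2.60 (2.53 to 2.68) in macrophages. The 2 resistant samples that keep Ptgs1 and Ptgs2 differed as well, by -1.09 on the log2 scale in macrophages, so the gap of RTT_PTGS12KO to RTT, at 101 against 34.6 CPM, was smaller than that to RTT_ROSA26.

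Within each comparison the Cd274 ratios of all cell types that could be compared had the same sign, although some counting intervals included 0. With at least 20 cells in both samples, NTT exceeded RTT in 8 of 8 types, with log2 ratios from 1.04 in neutrophils to 3.01 in TAM_cycling. RTT_PTGS12KO exceeded RTT_ROSA26 in 11 of 11 types, from 0.10 (-0.49 to 0.75) in NK cells to 3.38 in Macro, a separate cluster led by Retnla, Ccl8 and Lyve1. RTT_ROSA26 was below RTT in 9 of 9 types, with log2 ratios between -1.34 and -0.25, but the intervals of Infl_Mono and Ctsk_Macro included 0. These types share one sample per group and are not replicates. Neutrophils, the short-lived granulocytes, held 744 CPM in NTT, 363 CPM in RTT, 143 CPM in RTT_ROSA26 and 773 CPM in RTT_PTGS12KO, so here the knockout sample was level with NTT. In cDC2, the conventional dendritic cells that present antigen mainly to CD4+ T cells, Cd274 was at 315, 101, 54 and 191 CPM in the same order. Monocyte marker RNA moved with the samples in both types, with 0 of 5 markers at zero. It summed in cDC2 to 4918, 749, 760 and 2362 CPM, and in neutrophils to 5043, 2516, 1280 and 3741 CPM, in the same order. Macrophage markers in neutrophils summed to 4904, 18198, 18956 and 7250 CPM, and the part of this RNA in the Cd274 values was not tested.

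Among the clusters pooled as macrophages, TAM_H2Ab1, led by Ccl8, Gbp2b and Cxcl9, carried the highest Cd274, at 432 CPM in NTT, 208 CPM in RTT and 232 CPM in RTT_PTGS12KO. Macro, which is outside that class, had 264 CPM in RTT_PTGS12KO. TAM_C1q was low in RTT and RTT_ROSA26, at 26.3 and 15.1 CPM, and at 70.4 CPM in RTT_PTGS12KO. Ctsk_Macro had 15.3 CPM in RTT, 11.6 CPM in RTT_ROSA26 and 98.7 CPM in RTT_PTGS12KO. When each cluster was given equal weight, the macrophage ratio of NTT against RTT was 1.58 in place of 3.17, and it was 2.58 without TAM_H2Ab1, an alternative added once the data had been seen.

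**Figure D3:**
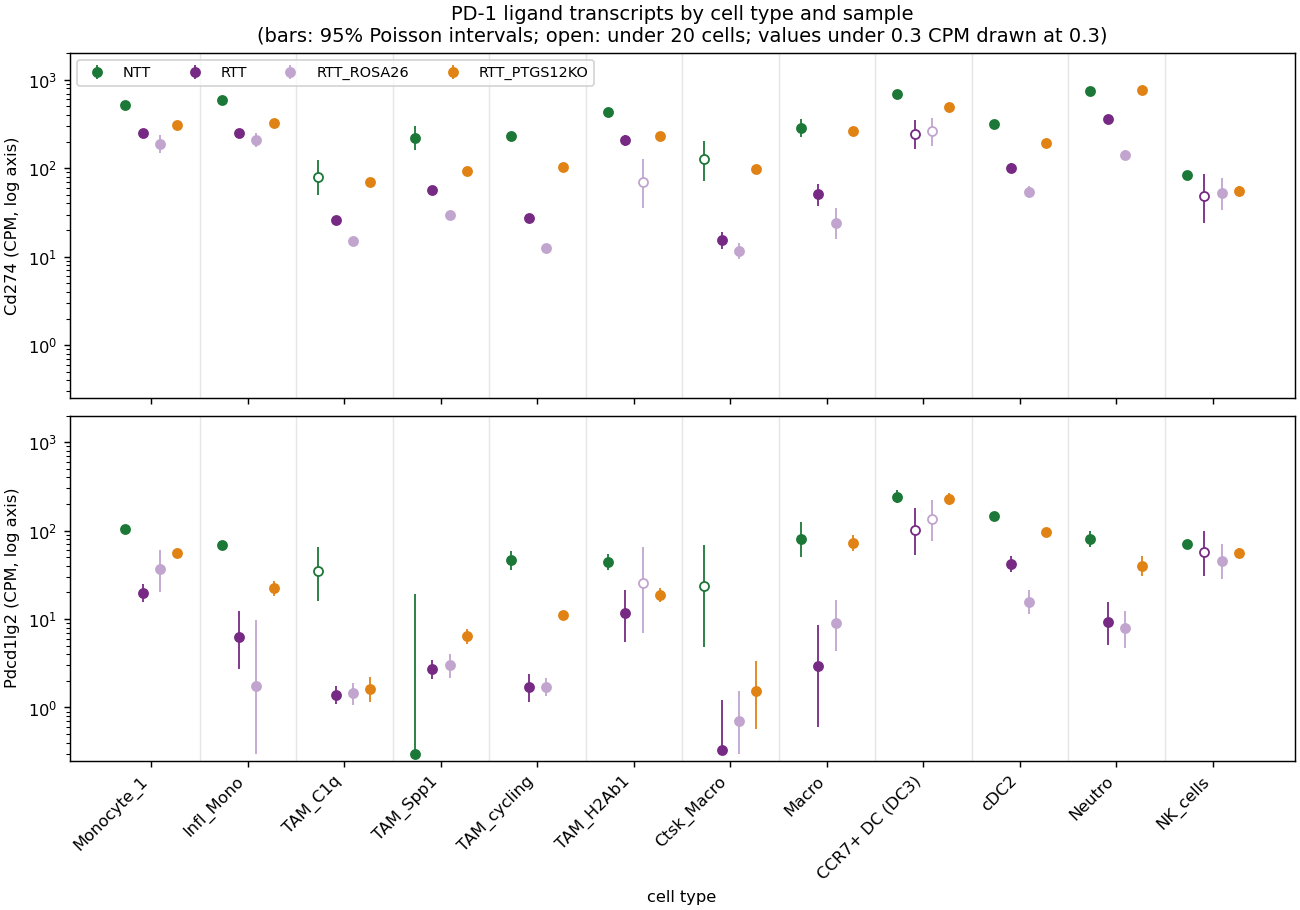
Cd274 (top) and Pdcd1lg2 (bottom) in CPM on log axes in 12 cell types (horizontal axis), with 1 point per sample and 95% Poisson intervals; open points rest on fewer than 20 cells. Cd274 is lowest in RTT_ROSA26 and higher in NTT than in RTT in the types of at least 20 cells, and Pdcd1lg2 in NK cells lies between 45.7 and 71 CPM in all 4 samples.

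The share of cells with a Cd274 UMI followed the levels. After every cell was thinned to 3000 UMIs, to remove differences in depth, 73.2% of NTT monocytes (4729 of 6457 cells), 49.6% in RTT, 37.7% in RTT_ROSA26 and 53.9% in RTT_PTGS12KO had at least 1 UMI, with 6 to 162 shallower cells left out per sample. The macrophage shares were 55.2%, 9.2%, 4.47% and 21.4% in the same order, with 2 to 38 cells left out. Without thinning, the monocyte shares were 90.1%, 73.8%, 50% and 81%, and the macrophage shares 85.1%, 26.8%, 16.6% and 53.8%. Myofibrobl, the type with the lowest mean level, had a Cd274 UMI in 1.61% of 248 cells from RTT, in 1.72% of 58 from RTT_ROSA26 and in 8.11% of 37 from RTT_PTGS12KO after thinning. Each share was below that of the macrophages of the same sample, but those of RTT_ROSA26 and RTT_PTGS12KO rest on too few cells to show a lower background. Median depths before thinning were 32760 to 38225 UMIs in the Myofibrobl cells and 12915 to 15570 in the macrophages. NK cells differed little, with 18.3% in NTT and 14.6% in RTT_PTGS12KO.

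**Figure D4:**
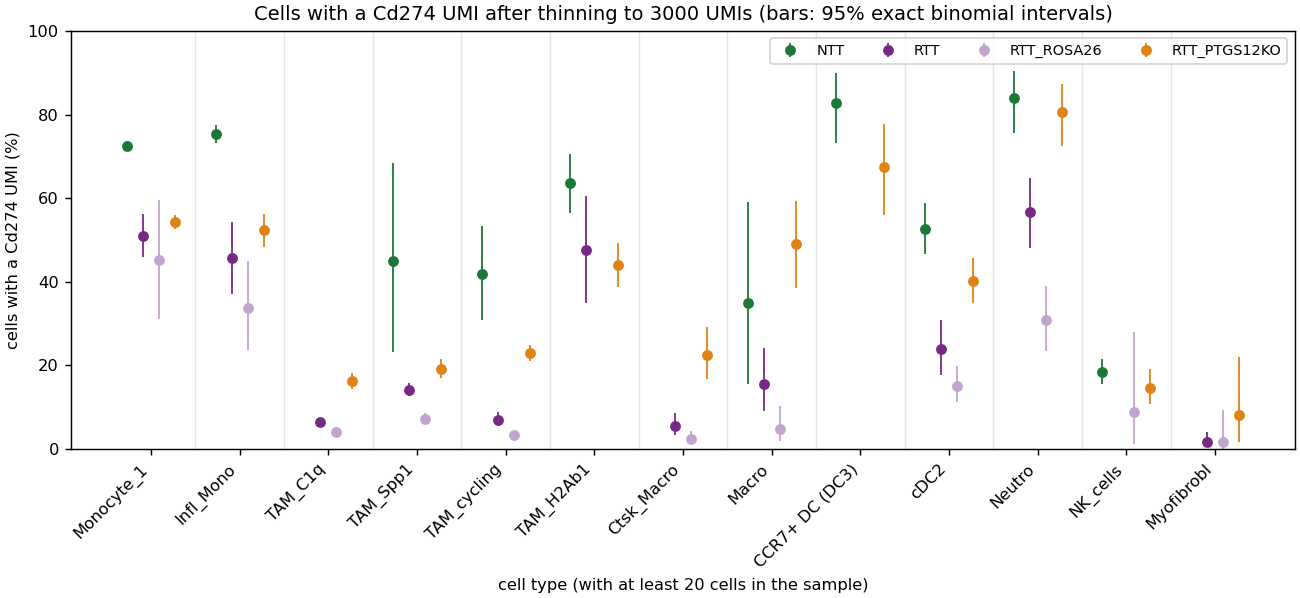
Percent of cells with at least 1 Cd274 UMI after thinning each cell to 3000 UMIs (vertical axis), by cell type and sample, with 95% exact binomial intervals that cover counting error only. RTT_ROSA26 is at 30.8% and RTT_PTGS12KO at 80.7% of neutrophils, and both stay at or under 22.9% in TAM_C1q, TAM_Spp1, TAM_cycling and Ctsk_Macro.

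Marker RNA of the other class moved with these values. The 7 macrophage markers summed to 5234 CPM in NTT monocytes, 15043 CPM in RTT, 9129 CPM in RTT_ROSA26 and 6257 CPM in RTT_PTGS12KO, with 0 of 7 at zero in any sample. The 5 monocyte markers summed to 1772 CPM in NTT macrophages, 301 CPM in RTT, 323 CPM in RTT_ROSA26 and 633 CPM in RTT_PTGS12KO, with 0 of 5 at zero. Leaving out the cells whose marker UMIs pointed to the other class kept 4363 of 6619 NTT monocytes and 164 of 522 RTT monocytes, and the Cd274 ratio of NTT against RTT in monocytes was then 0.89, below 2-fold. Melanoma markers summed to no more than 0.348 CPM in either class, but whether the tumour cells of these lines express them was not tested. The part of other-class RNA in the Cd274 differences beyond this was not tested.

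Pdcd1lg2, encoding PD-L2, was the less abundant ligand and showed the larger ratio of NTT against RTT with a pseudocount of 1 CPM. Its monocyte levels were 96.8 CPM (94.1 to 99.5) in NTT, 16.3 CPM (12.9 to 20.3) in RTT, 16 CPM (9.13 to 25.9) in RTT_ROSA26 and 52.3 CPM (50.1 to 54.5) in RTT_PTGS12KO. Macrophages held 41.6 CPM (35.5 to 48.3), 1.79 CPM (1.53 to 2.08), 1.75 CPM (1.5 to 2.03) and 7.88 CPM (7.31 to 8.49) in the same order. RTT and RTT_ROSA26 overlapped in both classes, and NTT and RTT_PTGS12KO were above them without overlap. NTT against RTT had a log2 ratio of 2.50 (2.20 to 2.81) in monocytes and 3.93 (3.67 to 4.18) in macrophages, and RTT_PTGS12KO against RTT_ROSA26 gave 1.65 (0.98 to 2.40) in monocytes. The macrophage ratio depends on the low RTT level, and was 2.13 with a pseudocount of 10 CPM and 2.30 with clusters weighted equally. The monocyte ratio of RTT_PTGS12KO against RTT_ROSA26 rests on 16 UMIs in RTT_ROSA26 and on the balance of clusters, since Monocyte_1 alone had 56.5 CPM against 36.4 CPM and the ratio without Infl_Mono, also added once the data had been seen, was 0.67.

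In cDC2, Pdcd1lg2 was at 146 CPM (131 to 162) in NTT, 42.3 CPM (34 to 52) in RTT, 15.7 CPM (11.3 to 21.1) in RTT_ROSA26 and 97.2 CPM (87.1 to 108) in RTT_PTGS12KO. The order of samples was that of Cd274, and the monocyte marker sums given for cDC2 beside Cd274 move with these values too, in a part that was not tested. In the 7 types with at least 20 cells in both samples and 10 CPM in one of them, NTT exceeded RTT each time, with log2 ratios from 1.76 to 4.39, and RTT_PTGS12KO exceeded RTT_ROSA26 in 7 of 7, from 0.30 to 3.09. The 3.09, of Infl_Mono, rests on 1 UMI in RTT_ROSA26, and the 4.39, of Macro, on 21 UMIs in NTT and 3 UMIs in RTT. In NK cells, lymphocytes that kill without a rearranged receptor, the samples lay closer together. They held 71 CPM (65 to 77.5) in NTT, 57.3 CPM (30.5 to 98) in RTT, 45.7 CPM (28.3 to 69.8) in RTT_ROSA26 and 56.3 CPM (50.1 to 63.1) in RTT_PTGS12KO. Most of these intervals overlap, RTT rested on 13 cells and RTT_ROSA26 on 26, and the lowest ratio of the 7, 0.30 (-0.33 to 0.99), is theirs. Their level exceeded the 1.75 CPM of RTT_ROSA26 macrophages from the same libraries, so NK cells give no background for this gene. In Myofibrobl of RTT the level was 0.798 CPM (0.321 to 1.64; 7 UMIs), which overlaps that of RTT macrophages. After thinning, 0 of 248 of these cells had a UMI, which allows a share of up to 1.21% by 3 counts or 1.48% by the exact interval. By comparison, 21% of NTT monocytes and 3.12% of RTT monocytes had a UMI after thinning (35.5% and 8.81% without), and the macrophage shares of 0.447% in RTT and 0.42% in RTT_ROSA26 could not be told from background at this depth.

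Cd80 and Cd86, the CD28 ligands, did not follow the PD-1 ligands. Cd86 stood at 212 CPM in NTT monocytes and 223 CPM in those of RTT, and at 194 CPM in both RTT_ROSA26 and RTT_PTGS12KO. The log2 ratio of NTT against RTT was -0.08 (-0.17 to 0.01), and that of RTT_PTGS12KO against RTT_ROSA26 was 0.00 (-0.20 to 0.21). Both ratios pool clusters that differed in opposite directions. NTT against RTT had 256 against 179 CPM in Infl_Mono (log2 ratio 0.52, 0.32 to 0.71) and 199 against 239 CPM in Monocyte_1 (-0.27, -0.37 to -0.16). RTT_PTGS12KO against RTT_ROSA26 had 208 against 146 CPM in Infl_Mono (0.51) and 192 against 267 CPM in Monocyte_1 (-0.47). Infl_Mono made up 86 of 144 monocytes in RTT_ROSA26 and 635 of 4015 in RTT_PTGS12KO, and without it the ratio of these 2 samples was -0.42. Macrophages held 181, 152, 122 and 128 CPM in the same order, and the 3 ratios there lay between -0.31 and 0.25. NK cells, with 22 CPM in RTT_PTGS12KO and 26.2 CPM in NTT, had a Cd86 UMI in 3.55% of NTT cells after thinning, beside 45.1% of NTT monocytes (10.6% and 71.4% without thinning), at median depths of 7669 and 7113 UMIs.

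Cd80 was the scarcer of the pair, with a lower mean level than Cd86 in all 17 types. Monocytes had 23.3, 22.4, 22 and 18.5 CPM in NTT, RTT, RTT_ROSA26 and RTT_PTGS12KO, and the RTT_PTGS12KO interval overlapped those of RTT and RTT_ROSA26. Its ratio to RTT_ROSA26 was -0.24 (-0.82 to 0.41), and went both ways within clusters, at 1.005 in Infl_Mono and -0.96 in Monocyte_1, from 8 and 14 UMIs in RTT_ROSA26. Macrophages had 8.12 CPM (5.59 to 11.4) in NTT, 18.6 CPM (17.8 to 19.5) in RTT, 16 CPM (15.2 to 16.8) in RTT_ROSA26 and 16.2 CPM (15.4 to 17.1) in RTT_PTGS12KO. NTT was thus the low sample, with a log2 ratio to RTT of -1.10 (-1.58 to -0.66) from 33 UMIs. It was no longer past 2-fold with a pseudocount of 10 CPM, at -0.66, or without TAM_H2Ab1, at -0.98. TAM_Spp1 carried the most Cd80 of the macrophage clusters in the resistant samples, at 38.7 CPM in RTT, 47.2 CPM in RTT_ROSA26 and 31.7 CPM in RTT_PTGS12KO. In NTT it held 5.16 CPM from 1 UMI, below TAM_H2Ab1 and TAM_cycling. TAM_Spp1 made up 20 of 308 macrophages in NTT against 2057 of 6734 in RTT. In the other clusters with at least 20 cells in both samples the gap was smaller, at 7.29 against 10.4 CPM in TAM_H2Ab1 and 8.42 against 12.7 CPM in TAM_cycling. Cell type by cell type, Cd86 was higher in NTT than in RTT in 7 of 8 types, with log2 ratios from -0.27 to 0.67. Its intervals included 0 in TAM_Spp1, at 0.02 (-0.44 to 0.45), and Macro, at 0.35 (-0.29 to 0.95). The 1 lower type, Monocyte_1, gave -0.27 (-0.37 to -0.16). Cd80 was lower in 6 of 8, from -2.69 to 0.19, the lowest resting on 1 UMI in NTT TAM_Spp1. The Cd80 intervals included 0 in TAM_H2Ab1, TAM_cycling, Macro and neutrophils. Neutrophils expressed Cd80 at 47.7 to 81.3 CPM in the 4 samples, with a UMI in 17% to 23.5% of cells after thinning (34% to 48% without), against 0.592% of NTT NK cells (2.82% without).

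Lgals9 encodes galectin-9, a sugar-binding ligand of TIM-3, and Havcr2 encodes TIM-3. Lgals9 was at 190 CPM in NTT monocytes, 144 CPM in RTT, 179 CPM in RTT_ROSA26 and 144 CPM in RTT_PTGS12KO, and between 124 and 174 CPM in macrophages. Its log2 ratios lay between -0.30 and 0.40 in both classes. The lowest, of RTT_PTGS12KO against RTT_ROSA26 in monocytes, has the opposite sign to both clusters compared, which gave 0.08 in Infl_Mono and 0.17 in Monocyte_1. Infl_Mono, the cluster led by interferon-stimulated genes such as Ifit3 and Rsad2, held more of it than Monocyte_1 in each sample, with 295 against 159 CPM in NTT, 242 against 110 CPM in RTT, 228 against 116 CPM in RTT_ROSA26 and 241 against 131 CPM in RTT_PTGS12KO. DC3 were low, at 26.8 CPM in NTT and 29.4 CPM in RTT_PTGS12KO.

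Havcr2 in monocytes was lowest in RTT_PTGS12KO, at 71.8 CPM (69.2 to 74.4), beside 87.9 CPM (85.3 to 90.5) in NTT, 95.8 CPM (87.4 to 105) in RTT and 130 CPM (108 to 154) in RTT_ROSA26. The ratio of RTT_PTGS12KO against RTT_ROSA26 was -0.84 (-1.10 to -0.58), opposite in sign to that of the PD-1 ligands, and it became -1.14 when cells with markers of the other class were left out. In macrophages NTT was the high sample, at 81.2 CPM (72.7 to 90.4) against 50.6 to 56.6 CPM in the other 3, and it led in TAM_H2Ab1 and TAM_cycling. Within TAM_Spp1, RTT_ROSA26 was highest at 114 CPM, beside 87.7 CPM in NTT (17 UMIs), 72 CPM in RTT and 65.6 CPM in RTT_PTGS12KO. The log2 ratio of RTT_PTGS12KO against RTT_ROSA26 was -0.78 (-0.90 to -0.67) in TAM_Spp1 and -0.06 in the class. T cells, on which TIM-3 is known as an exhaustion marker, had 37.2 CPM (28.2 to 48) in 93 NTT cells and 68.3 CPM (54.1 to 85.1) in 45 RTT_PTGS12KO cells. A Havcr2 UMI was found in 22.2% of NTT monocytes and 24.6% of RTT monocytes after thinning (41.2% and 49.8% without), against 0.403% of RTT Myofibrobl cells (9.24% without).

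Vsir encodes VISTA, an inhibitory molecule of myeloid and T cells. It was higher in RTT than in the other 3 samples in both classes. Monocytes held 161 CPM (158 to 165) in NTT, 198 CPM (186 to 211) in RTT, 134 CPM (112 to 158) in RTT_ROSA26 and 132 CPM (129 to 136) in RTT_PTGS12KO, and macrophages 203, 234, 165 and 130 CPM. RTT_PTGS12KO was lowest in macrophages, with a log2 ratio to RTT_ROSA26 of -0.34 (-0.38 to -0.31), and 8 of 11 types pointed that way. The lowest of these ratios, -1.88 in NK cells, rests on 26 cells of RTT_ROSA26. Macrophage markers in NK cells summed to 7606 CPM in RTT_ROSA26 and 1281 CPM in RTT_PTGS12KO, and their part was not tested. In macrophages, RTT_ROSA26 against RTT differed by -0.50 (-0.53 to -0.47), so the 2 samples that keep the cyclooxygenase genes were further apart than the knockout from its control. After thinning, 48.9% of RTT macrophages and 31.9% of RTT_PTGS12KO macrophages had a Vsir UMI (89.7% and 80.4% without thinning), against 0.806% of RTT Myofibrobl cells (12.9% without). Vsir overlaps Cdh23, a protein-coding gene on the opposite strand, so the same limit on strand holds for it.

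Cd200 and its receptor Cd200r1, an inhibitory pair between neighbouring cells, peaked in different cell types. Cd200 reached 489 CPM (436 to 547) in DC3 of NTT and 371 CPM (328 to 417) in RTT_PTGS12KO, and the few DC3 of RTT (12 cells) and RTT_ROSA26 (14 cells) had 384 CPM (280 to 514) and 532 CPM (409 to 681). Ctsk_Macro was the one macrophage cluster with Cd200, at 44.3 CPM (39.2 to 50) in RTT, 64.6 CPM (59.4 to 70.2) in RTT_ROSA26 and 34.6 CPM (29 to 41) in RTT_PTGS12KO, where its log2 ratio to RTT_ROSA26 was -0.88. Cd200r1 was found in that cluster as well, at 17.8, 12.1 and 10.1 CPM in the same order. The other 4 macrophage clusters held Cd200 at between 0 and 3.84 CPM. After thinning, a Cd200 UMI was found in 13.2% of Ctsk_Macro cells of RTT_ROSA26 and 48.3% of DC3 of NTT, against 0.0448% of TAM_C1q cells of RTT_ROSA26. Without thinning these shares were 37.9%, 66.3% and 0.445%. T cells had 35.2 CPM in NTT and 31.1 CPM in RTT_PTGS12KO.

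Cd200r1 was a low transcript of myeloid cells. Macrophages held 21.4 to 28.6 CPM in the 4 samples. Monocytes held 23.4 CPM (22.1 to 24.8) in NTT, 21.4 CPM (17.5 to 25.9) in RTT, 18 CPM (10.6 to 28.4) in RTT_ROSA26 and 32.4 CPM (30.7 to 34.2) in RTT_PTGS12KO, the last being above the others. Its peak was in Macro, with 92.6, 34.1, 91.2 and 103 CPM in NTT, RTT, RTT_ROSA26 and RTT_PTGS12KO, and RTT was the low sample there. RTT rested on 35 UMIs in 99 cells, and NTT on 24 UMIs in 21 cells. The gene belongs to a family of near-identical receptors, so its counts are uncertain where reads were shared between copies.

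Sirpa, the receptor of CD47, was not past 2-fold in either class. Macrophages held 228, 245, 262 and 194 CPM and monocytes 229, 194, 145 and 180 CPM in NTT, RTT, RTT_ROSA26 and RTT_PTGS12KO. Its macrophage level was lower in RTT_PTGS12KO than in RTT_ROSA26, at -0.43 (-0.46 to -0.40) on the log2 scale, and its monocyte level higher, at 0.32 (0.08 to 0.56), from 0.45 in Monocyte_1 and -0.15 in Infl_Mono. Type by type, RTT_PTGS12KO was lower in 8 of 11 types, with log2 ratios from -2.11 in NK cells to 0.45. After thinning, 46.9% of NTT monocytes had a Sirpa UMI, against 3.99% of NTT NK cells (73.6% and 10.2% without). NK cells had 20.4 CPM in NTT and 20.8 CPM in RTT_PTGS12KO but 123 CPM in RTT and 93.5 CPM in RTT_ROSA26. The 7 macrophage markers in those NK cells summed to 1094 and 1281 CPM in the first 2 and to 14303 and 7606 CPM in the last 2, with 0 of 7 at zero, and their part in the Sirpa values was not tested.

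CCR7+ dendritic cells, mature cells that migrate to lymph nodes, had higher levels than cDC2 for 5 of the 10 genes. Within NTT, the log2 ratio of DC3 to cDC2 was 1.14 for Cd274 (698 against 315 CPM), 0.73 for Pdcd1lg2 (243 against 146 CPM), 1.31 for Cd80 (103 against 40.9 CPM) and 0.45 for Cd86 (399 against 292 CPM). In RTT_PTGS12KO the same ratios were 1.38, 1.21, 0.91 and 0.32. Cd200 was 75.0-fold higher in NTT and 113-fold higher in RTT_PTGS12KO, and is itself 1 of the 10 leading genes of the cluster. Lgals9, Vsir, Havcr2, Cd200r1 and Sirpa pointed the other way in both samples, with ratios from -2.69 to -0.56. Monocyte marker RNA differed the same way, at 1567 CPM in DC3 against 4918 CPM in cDC2 of NTT and 539 against 2362 CPM in RTT_PTGS12KO, with 0 of 5 markers at zero, and its part in these ratios was not tested. After thinning, at least 3 of the 5 genes Cd274, Pdcd1lg2, Cd80, Cd86 and Cd200, which are the 5 that were higher in DC3, were detected in 57.5% of 87 DC3 of NTT (46.4% to 68.0%) and 49.4% of 77 of RTT_PTGS12KO (37.8% to 61.0%). The choice of these genes fixes that DC3 lead, so the shares are a description. For cDC2 the share reached 18.5% in NTT and 11.1% in RTT_PTGS12KO, and was lower in RTT (5.81%) and RTT_ROSA26 (2.81%). The monocyte marker sums given for cDC2 beside Cd274 were likewise higher in NTT and RTT_PTGS12KO, and their part was not tested. A UMI of both PD-1 ligands was found in 36.8% of DC3 of NTT (26.7% to 47.8%) and 29.9% of RTT_PTGS12KO (20% to 41.4%). Among monocytes both ligands were found in 16.5% of NTT cells, 6.81% of RTT_PTGS12KO cells and no more than 2.34% of cells of the other 2 samples, and among macrophages in 5.23% of NTT cells and no more than 0.423% elsewhere.

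**Figure D5:**
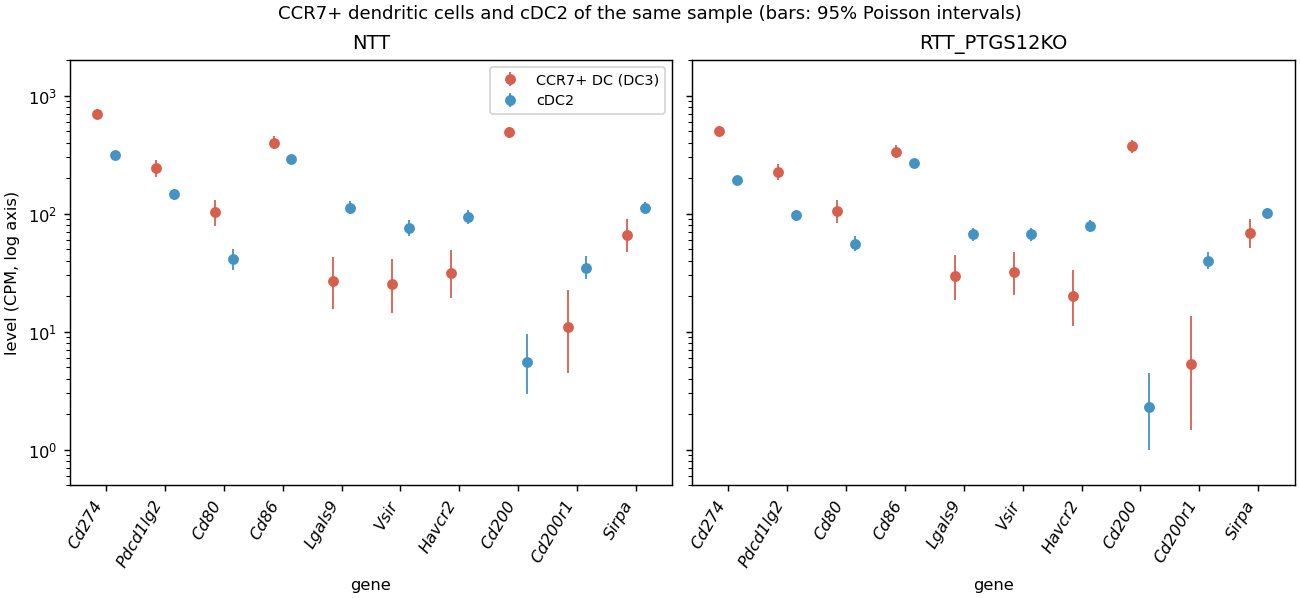
Level of each of the 10 genes (horizontal axis) in CPM on a log axis in CCR7+ dendritic cells (red) and cDC2 (blue) of NTT (left) and RTT_PTGS12KO (right), with 95% Poisson intervals. Cd274, Pdcd1lg2, Cd80, Cd86 and Cd200 are higher in the CCR7+ cells of both samples and the other 5 genes are higher in cDC2.

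The 25 partner genes are receptors and related immune modulators, of which 9 or 10 could be tested in each comparison. In NTT against RTT, 0 of 9 that reached 10 CPM in monocytes were past 2-fold, and in macrophages 1 of 10 was higher, against 5.6% of all genes: Lair1, an inhibitory collagen receptor, at 373 against 142 CPM (log2 ratio 1.39, 1.31 to 1.47). In RTT_PTGS12KO against RTT_ROSA26, 2 of 10 were lower in monocytes, against 2.47% of all genes: Ceacam1, a TIM-3 ligand, at 7.87 against 26.9 CPM, and Cd244a, a receptor for CD48, at 16.3 against 47.9 CPM. Ceacam1 was also the 1 of 10 past 2-fold in monocytes between the resistant samples that keep both genes, higher in RTT_ROSA26 against 2.2% of all genes, with 26.9 CPM in RTT_ROSA26 (27 UMIs) and 5.71 CPM in RTT. The macrophages gave 0 of 10 in both comparisons among resistant samples. Among the receptors of the T cell ligands, in NTT T cells Cd28 was at 224 CPM, Ctla4 at 113 CPM and Pdcd1 at 23.7 CPM, and in RTT_PTGS12KO T cells at 122, 91.6 and 38.9 CPM. Pdcd1 was also found in DC3, at 41 CPM (26.8 to 60.1) in NTT, where its interval overlaps that of T cells, and at 13.4 CPM (6.42 to 24.6) in RTT_PTGS12KO, below the T cells, and in NK cells of NTT at 25 CPM. Cd47, the ligand of SIRPα, was at 263 to 416 CPM in monocytes and macrophages of the 4 samples.

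The genes most like each member over the 42 sums of at least 50 cells of a sample and type, out of 5122 genes searched, describe where it is expressed. Cd274 resembled Sp140 (Pearson r = 0.93) and Isg15 (r = 0.93), the latter a classic interferon-stimulated gene, and Pdcd1lg2 resembled H2-Q6 (r = 0.93) and Klrk1 (r = 0.91). Sirpa was closest to Cd68 (r = 0.96) and Csf1r (r = 0.96), general macrophage genes. Vsir followed Tspan14 (r = 0.95) and Rnpep (r = 0.94), Lgals9 followed Il18 (r = 0.92), and Cd86 followed Etv6 (r = 0.93) and Bcl2a1a (r = 0.92). The remaining pairs were Ifrd1 and Cd24a for Cd80, Rassf4 and Cysltr1 for Cd200r1, Spint1 and AI504432 for Havcr2, and Eno3 and Scin for Cd200, with r from 0.82 to 0.90. The sums share samples and cell types, so these values carry no test.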

How the data were processed

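Live CD45+ cells were sorted from digested tumours, 1 sample per group, labelled with multiplexing oligos, pooled and loaded 3 times for 3' capture. Per the labels and the study's methods, the authors used Cell Ranger (multi pipeline, mm10 reference) and Seurat 4.3.0, kept cells with more than 1000 genes, under 15% mitochondrial and under 40% ribosomal reads, and named clusters after integration with other experiments. The deposited matrix holds raw UMI counts of 32285 genes in 33368 cells. Whether doublets were removed is not given in the sources used here, and leaving out the 5% of cells with most genes is one alternative.

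Counts were summed per sample and type (Python 3.11.15, numpy 2.4.6, scipy 1.17.1) and divided by the total to give CPM with exact Poisson intervals. Ratios were log2 of CPM + 1, with intervals from the exact binomial interval of the paired counts. Intervals cover counting error only, and deeper sums have narrower ones: monocyte sums held 1002126 to 51565564 UMIs. The comparison step was tested on simulated counts. Shares were taken after thinning cells to 3000 UMIs (exact Clopper-Pearson intervals). A share of 0 was bounded by 3 counts. No test between samples was possible, as each group has 1 sample. Alternatives were CPM + 10, TMM factors (edgeR 4.0.16), stricter cells, clusters weighted equally, loads left out, minima of 0 and 50 CPM, and thinning to 5000 UMIs. All 10 members are named, with partner genes past 2-fold and the 2 most alike genes of each member, of which 1 is not reported here. The members, partner and marker lists were chosen with earlier results of these data known. Gene positions came from GENCODE vM21 and promoters from RefSeq on GRCm38.p6, the build of mm10.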

Additional observations from a re-analysis of the deposited data

Results flagged for a closer look

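Sirpa and Lgals9 moved in opposite directions in monocytes and macrophages of the same samples, with counting intervals that left out 0 in both classes. For Sirpa the log2 ratios were 0.24 in monocytes and -0.11 in macrophages when NTT was set against RTT. They were 0.32 and -0.43 when RTT_PTGS12KO was set against RTT_ROSA26, and -0.42 and 0.093 when RTT_ROSA26 was set against RTT. For Lgals9 the log2 ratios of RTT_ROSA26 against RTT were 0.31 in monocytes and -0.15 in macrophages. The difference between the classes was not tested, since each group is 1 sample, and all of these values are below 2-fold. With TMM factors the last Sirpa value in macrophages was -0.0037, on the other side of 0, and with clusters weighted equally the Lgals9 value in monocytes was -0.03.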

How the results depend on the processing

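The count of genes past 2-fold, in either direction, stayed within 1.5 times in 57 planned results and moved further in 9. Without cells whose marker UMIs point to the other class, it was 1 for NTT against RTT in monocytes (Pdcd1lg2 remained, Cd274 left) and 2 for RTT_PTGS12KO against RTT_ROSA26 in monocytes (Havcr2 joined as lower). The latter was also 2 with load 3 left out (Cd200r1 joined) and 2 with no minimum CPM (Cd200 joined, at 1.01 CPM against 0). In macrophages, a minimum of 50 CPM gave 1 for NTT against RTT (Cd274), and no minimum gave 3 for RTT_PTGS12KO against RTT_ROSA26 (Pdcd1lg2 joined as higher and Cd200 as lower). In the same class, RTT_ROSA26 against RTT gave 0 with CPM + 10, 0 with clusters weighted equally and 0 with a minimum of 50 CPM. Of the planned log2 ratios, 413 stayed inside the counting interval and 55 left it, and none past 2-fold changed sign. Shares of cells with a UMI depend on depth: 146 left their interval and 14 did not when thinning was changed or dropped. Both alternatives added after seeing the data left the counts within 1.5 times, but without Infl_Mono the 1 gene of RTT_PTGS12KO against RTT_ROSA26 in monocytes was Havcr2, not Pdcd1lg2. The RTT_ROSA26 monocytes (144 cells) give the widest intervals. No paired analysis was possible because none of the 4 groups holds more than 1 sample.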
